A study of Mus musculus with 6 samples.

Results

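The 10 genes examined here encode the machinery that loads peptides on MHC class II molecules, and they were taken by symbol from the RNA-Seq count table of cultured bone marrow stromal cells (BM MSCs), which lists 56980 genes. They are *H2-Aa*, *H2-Ab1*, *H2-Eb1*, *Cd74*, *Ciita*, *H2-DMa*, *H2-DMb1*, *H2-DMb2*, *H2-Oa* and *H2-Ob*. All 10 passed the low-count filter that left 15190 genes for testing. The cells came from female mice that underwent ovariectomy (OVX) at 8 weeks of age and had their own gut microbiota depleted with antibiotics. These recipients were then gavaged for 8 weeks with feces of sedentary OVX donors (TranspCtrl, 3 samples) or of OVX donors trained on a treadmill for 8 weeks (TranspExer, 3 samples). OVX, the antibiotics and the gavage were thus shared by both groups, and the mouse strain is not given in the sources used here. Marrow was flushed from the bones and grown for 7 days, loose cells were washed away, and no sorting step was described, so blood cells that adhere or survive in such a culture could contribute RNA.

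Class II molecules are heterodimers of an α chain and a β chain that present peptides from endocytosed proteins to CD4+ T cells. The newly made dimer is held by the invariant chain (CD74), which proteases in the endosome trim to a fragment called CLIP. The H2-DM dimer then exchanges CLIP for peptide, the H2-O dimer inhibits H2-DM, and the transactivator CIITA switches on most of these genes. In marrow, class II is carried chiefly by B cells, dendritic cells and macrophages, and interferon γ can induce it in stromal and endothelial cells.

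CIITA does not bind DNA itself but docks on proteins bound to a conserved promoter module, in which an X box recognised by RFX proteins lies before a Y box recognised by NF-Y. RefSeq promoter windows (GRCm38.p6, 250 bases before to 50 bases after a start site) were examined for 7 of the 10 genes and for the related gene *H2-Eb2*. *Cd74*, *H2-Ab1* and *Ciita* were left out. The windows were searched on both strands for ATTGG, the core of the Y box, and for GNAAC, a core found in X boxes. Stretches of 60 bases are shown for the genes in which GNAAC preceded ATTGG on the gene's strand by 25 to 40 bases, without *H2-DMb1*, and the capitals mark GNAAC and ATTGG.
H2-Aa, chr17:34287862-34287921, minus strand: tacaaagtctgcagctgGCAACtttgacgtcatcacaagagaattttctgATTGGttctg
H2-Eb1, chr17:34305758-34305817, plus strand: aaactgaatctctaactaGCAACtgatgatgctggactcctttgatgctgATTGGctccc
H2-Oa, chr17:34092286-34092345, plus strand: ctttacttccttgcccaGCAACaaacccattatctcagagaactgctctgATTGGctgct
H2-Ob, chr17:34238798-34238857, plus strand: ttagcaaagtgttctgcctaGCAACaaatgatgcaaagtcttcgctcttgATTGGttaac
H2-Eb2, chr17:34325525-34325584, plus strand: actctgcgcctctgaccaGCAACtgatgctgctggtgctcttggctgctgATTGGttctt
In these 5 promoters the starts of the motifs were 33, 32, 33, 30 and 32 bases apart. *H2-DMb1* also held the pair, with 33 bases between the starts, whereas *H2-DMb2* and the second of 2 start sites of *H2-DMa* held ATTGG without a GNAAC at that distance, and the first *H2-DMa* window held no ATTGG. Of 32851 RefSeq promoter windows of the same length, 37.4% held ATTGG on either strand, 84.8% held GNAAC and 2.67% held the pair. These shares count the whole window on either strand, whereas the pairs above come from the 250 bases before the start on the gene's strand. The wider search found the pair in the same genes. The pair was therefore present in promoters of genes that were higher in the TranspExer group (*H2-Aa*, *H2-Eb1*) and of genes that were lower (*H2-Ob*, *H2-Eb2*), as described next. These matches are letters in a window and were not tested for binding.

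Total counts ranged from 17647638 to 21319166 per sample, at which 3 counts correspond to 0.139 to 0.174 CPM (the usual per-library count unit, here with edgeR's TMM scaling of the library totals). That floor covers counting error only. A gene was called at an adjusted p-value under 0.05 from edgeR's quasi-likelihood test over the 15190 genes, and a DEG also changed at least 2-fold. Among all genes tested, 16.6% were called higher in TranspExer and 15.5% lower, and the median over those genes was -0.02 on the log2 scale. Scaled by library size only, 2013 genes were higher and 2962 lower, against 2523 and 2361 with TMM. TranspCtrl replicate 1 stood apart from the other TranspCtrl samples: the mean chi-square per gene was 54.7 and 60.2 against them, whereas it was 3.81 between TranspCtrl replicates 2 and 3 and 4.52 to 7.99 within the TranspExer group. Nothing in the labels says that samples of a group are separate animals, so the p-values measure the spread between these samples, which may be technical.

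In the TranspExer group the classical chains, the invariant chain and the α chain of H2-DM were moderately higher, while the β chain of the inhibitor H2-O was lower. Of the 10 genes, 5 were called higher (*H2-Aa*, *H2-Ab1*, *H2-Eb1*, *Cd74* and *H2-DMa*), 1 was called lower (*H2-Ob*), and 4 did not pass (*H2-Oa*, *H2-DMb1*, *H2-DMb2* and *Ciita*). The shares of 50% higher and 10% lower compare with the 16.6% and 15.5% of all genes tested, and the median log2 fold change of the 10 was 0.26. No gene rose by the 2-fold required of a DEG in edgeR or DESeq2 (3.5% of all genes tested were upregulated DEGs). With that fold and an unadjusted p-value under 0.05, edgeR also had 0 higher genes. *H2-Ob* was a downregulated DEG in both tools (5.28% of all genes tested were). All TranspExer samples lay above all TranspCtrl samples for 5 of the 10 genes and below them for 3 (*H2-Oa*, *H2-Ob* and *Ciita*), where 27.2% and 25.1% of all genes did so. Without TranspCtrl replicate 1, 6 of the 10 were higher and 2 lower, with *H2-DMb1* and *H2-DMb2* added, where 22.1% and 19.6% of 15494 genes tested were. The count of higher genes was 3 without TranspCtrl replicate 2, 4 without TranspCtrl replicate 3 and 2 (*H2-Aa* and *H2-Ab1*) with each TranspExer sample left out in turn, where 14.5%, 13.2% and 8.42% to 9.39% of all genes were higher.

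**Figure D1:**
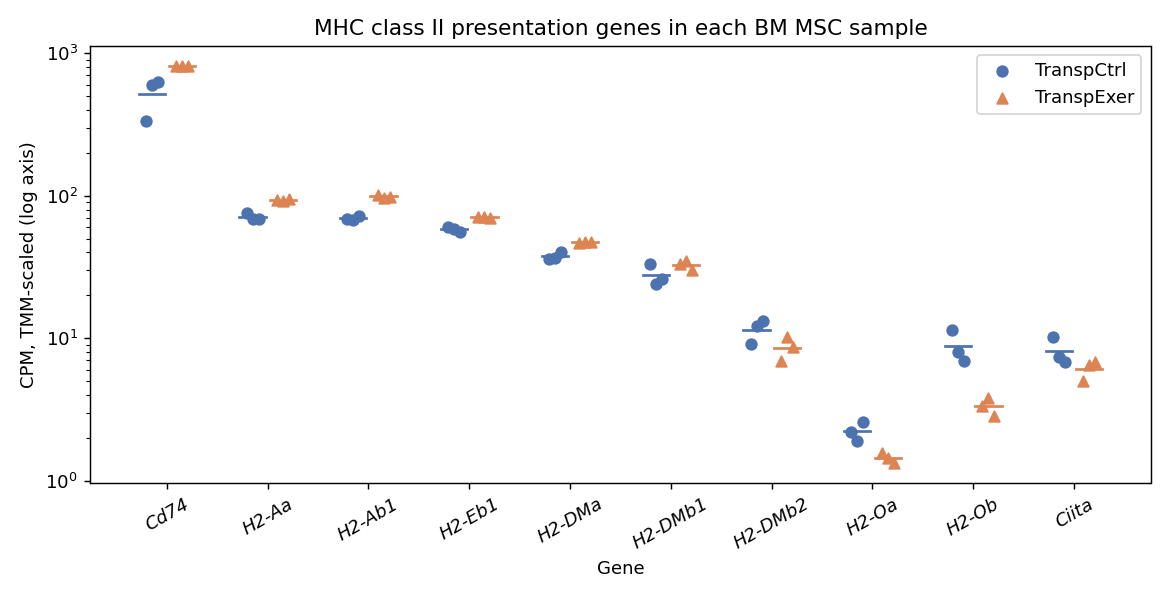
CPM of each gene (log axis) in the 3 TranspCtrl samples (circles) and the 3 TranspExer samples (triangles), with horizontal bars at the group means. Cd74 is the most abundant, at 336 to 628 CPM in TranspCtrl and 806 to 815 CPM in TranspExer, and H2-Oa the least, and all H2-Ob values of TranspExer lie below those of TranspCtrl.

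The classical α and β chains form the surface molecule. *H2-Ab1* (ENSMUSG00000073421, mm10 chr17:34257689-34269419, plus strand), the β chain of the A dimer, had 68.4, 67.9 and 71.8 CPM in the TranspCtrl samples (values are always given in the order of replicates 1, 2 and 3) and 102, 96.5 and 98.3 CPM in the TranspExer samples. The groups were far apart relative to their spread, and the log2 fold change was 0.51 (SE, the standard error, 0.07, edgeR adjusted p = 0.00146), a 1.42-fold rise.
*H2-Aa* (ENSMUSG00000036594, mm10 chr17:34282744-34287823, minus strand), the partner α chain, had 75.8, 68.3 and 68.2 CPM in TranspCtrl and 93.1, 91.4 and 94.8 CPM in TranspExer. Every TranspExer sample was above every TranspCtrl sample, and the log2 fold change was 0.40 (SE 0.08, adjusted p = 0.00641). Both genes stayed past the threshold with any sample left out, with log2 fold changes of 0.48 to 0.54 for *H2-Ab1* and 0.37 to 0.45 for *H2-Aa*.
*H2-Eb1* (ENSMUSG00000060586, mm10 chr17:34305867-34316674, plus strand), the β chain of the E dimer, had 60.7, 58.1 and 55.9 CPM in TranspCtrl and 70.4, 70.9 and 69.9 CPM in TranspExer. Its rise was the smallest of the called genes, with a log2 fold change of 0.27 (SE 0.07, adjusted p = 0.0205). The call depended on single samples, since it was kept without TranspCtrl replicate 1 (adjusted p = 0.000802) but lost without TranspCtrl replicate 2 or 3 (0.0515 and 0.0783) and without TranspExer replicate 1, 2 or 3 (0.0762, 0.0965 and 0.0783). It was also lost with scaling by library size only (log2 fold change 0.19, adjusted p = 0.1), with upper-quartile normalization (adjusted p = 0.0863) and with no low-count filter (0.26, adjusted p = 0.064). The opposite strand of *H2-Eb1* carries the antisense gene *Gm20513*, and how the counting used strand is not given in the sources used here.

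The E dimer needs an α chain encoded by *H2-Ea*, which some laboratory strains do not make. *H2-Ea* (ENSMUSG00000036322), annotated in GENCODE M21 as a polymorphic pseudogene, had 0 counts in all 6 samples, which allows a level of up to 0.139 to 0.174 CPM. *H2-Eb1* was thus measured at 55.9 to 70.9 CPM in samples with no detectable partner transcript. The neighbouring β-chain gene *H2-Eb2* (ENSMUSG00000067341) was low, with 76, 70 and 68 counts in TranspCtrl and 26, 20 and 23 counts in TranspExer. It moved against *H2-Eb1*, with 3.71, 3.59 and 3.16 CPM in TranspCtrl and 1.36, 1.16 and 1.14 CPM in TranspExer, and its log2 fold change was -1.51 (SE 0.20, adjusted p = 0.00116).

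*Cd74* (ENSMUSG00000024610, mm10 chr18:60803848-60812652, plus strand), the invariant chain, held 52.3% to 69.2% of the counts of the 10 genes in a sample. It had 336, 593 and 628 CPM in TranspCtrl, against 815, 806 and 809 CPM in TranspExer. The TranspExer samples were nearly equal, whereas TranspCtrl replicate 1 lay well below the other TranspCtrl samples. The log2 fold change was 0.64 (SE 0.21, adjusted p = 0.0479 from edgeR). Without TranspCtrl replicate 1 the difference was smaller but firmer, with a log2 fold change of 0.41 (SE 0.05, adjusted p = 1.87e-05). The call was lost without TranspCtrl replicate 2 (adjusted p = 0.0501) and without TranspExer replicate 1, 2 or 3 (0.119, 0.118 and 0.125), fits in which TranspCtrl replicate 1 remained, while it was kept without TranspCtrl replicate 3 (0.0382). TranspCtrl replicate 1 also had the lowest summed stromal markers of its group (11500 CPM, against 19351 and 18633 CPM) and the highest summed macrophage markers (14095 CPM, against 9020 and 9321 CPM), whose part in the *Cd74* value was not tested. The stromal gap came mostly from *Col1a1* (4563 CPM in that sample, against 9951 and 9613 CPM) and *Col1a2* (5132 CPM, against 7350 and 7029 CPM).

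**Figure D2:**
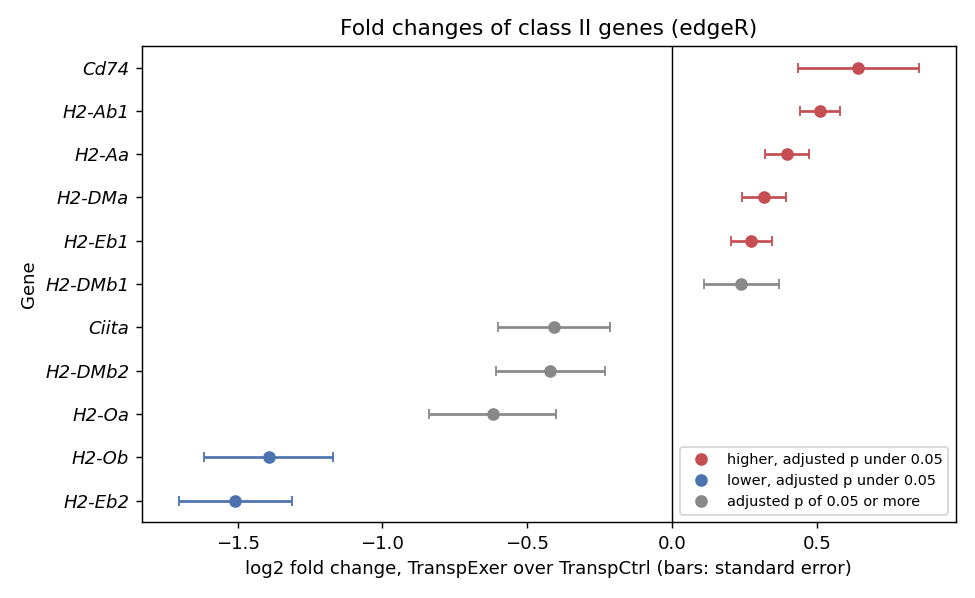
Log2 fold change of TranspExer over TranspCtrl (x axis) with its standard error for the 10 genes and H2-Eb2, from edgeR. Cd74, H2-Ab1, H2-Aa, H2-DMa and H2-Eb1 lie to the right of 0 past the threshold, H2-Ob and H2-Eb2 lie below -1, and H2-DMb1, Ciita, H2-DMb2 and H2-Oa did not pass.

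H2-DM, the peptide editor, is built from the product of *H2-DMa* and that of *H2-DMb1* or *H2-DMb2*. *H2-DMa* (ENSMUSG00000037649, mm10 chr17:34119541-34139101, plus strand) had 36.2, 36.8 and 40.4 CPM in TranspCtrl and 46.8, 47.0 and 47.5 CPM in TranspExer. The groups did not overlap, and the log2 fold change was 0.32 (SE 0.08, adjusted p = 0.0157). The call was lost without TranspExer replicate 1, 2 or 3 (adjusted p = 0.0565, 0.0702 and 0.0666), with a log2 fold change of 0.30 to 0.32 in those fits. *Brd2* overlaps the *H2-DMa* gene model on the opposite strand, and its log2 fold change was 0.14 (adjusted p = 0.187).
*H2-DMb1* (ENSMUSG00000079547, mm10 chr17:34153072-34160230, plus strand) had 33.0, 24.0 and 26.0 CPM in TranspCtrl and 33.4, 34.7 and 29.9 CPM in TranspExer. TranspCtrl replicate 1 lay among the TranspExer samples, and the log2 fold change of 0.24 did not pass (SE 0.13, adjusted p = 0.189). *H2-DMb2* (ENSMUSG00000037548, mm10 chr17:34143307-34151555, plus strand) had 9.08, 12.2 and 13.3 CPM in TranspCtrl and 6.91, 10.2 and 8.74 CPM in TranspExer. Its groups overlapped as well, again through TranspCtrl replicate 1, and the log2 fold change of -0.42 did not pass (SE 0.19, adjusted p = 0.123).
The β-chain genes are paralogs, and their transcripts are identical at 75.3% of aligned positions and share an identical stretch of 221 bases. Of all deposited values in a sample, 10.1% to 12.2% were not whole numbers, as happens when reads are divided between genes. The division of reads between *H2-DMb1* and *H2-DMb2* is therefore uncertain. In TranspCtrl replicate 1 the *H2-DMb1* value was the highest of the group and the *H2-DMb2* value the lowest. Without that sample both genes passed in opposite directions, *H2-DMb1* with a log2 fold change of 0.38 (adjusted p = 0.00266) and *H2-DMb2* with one of -0.57 (adjusted p = 0.00648). Added together and tested as 1 gene, an analysis chosen after the data were examined, they had 42.0, 36.2 and 39.2 CPM in TranspCtrl and 40.3, 44.9 and 38.7 CPM in TranspExer. Those groups overlapped, and the log2 fold change was 0.07 (SE 0.09, adjusted p = 0.557).

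H2-O, the inhibitor of H2-DM, is known mainly from B cells. *H2-Ob* (ENSMUSG00000041538, mm10 chr17:34238903-34254414, plus strand), its β chain, had 233, 156 and 148 counts in TranspCtrl and 64, 66 and 57 counts in TranspExer. These corresponded to 11.4, 8.01 and 6.88 CPM and to 3.35, 3.84 and 2.83 CPM. The lowest TranspCtrl sample was well above the highest TranspExer sample, and *H2-Ob* fell by 1.39 on the log2 scale (SE 0.22, adjusted p = 0.00297), a 2.63-fold difference. It stayed past the threshold with any sample left out, with adjusted p-values of 0.000124 to 0.0228. Without TranspCtrl replicate 1, its highest sample, the log2 fold change was -1.16.
*H2-Oa* (ENSMUSG00000024334, mm10 chr17:34092340-34095234, plus strand), the α chain, had 45, 37 and 56 counts in TranspCtrl and 30, 25 and 27 counts in TranspExer. All TranspExer samples were below all TranspCtrl samples, but the log2 fold change of -0.62 did not pass (SE 0.22, adjusted p = 0.0626). The adjusted p-value was 0.045 with upper-quartile normalization and 0.0433 with scaling by library size only. An antisense gene, *BC051537*, overlaps *H2-Oa*.

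*Ciita* (ENSMUSG00000022504, mm10 chr16:10480059-10528418, plus strand), the transactivator, was low in every sample and did not pass in either direction. It had 208, 143 and 147 counts in TranspCtrl and 96, 112 and 137 counts in TranspExer. In CPM, TranspCtrl replicates 1, 2 and 3 had 10.2, 7.34 and 6.84, and TranspExer replicates had 5.02, 6.51 and 6.81. The groups were separated by a hair, with TranspCtrl replicate 3 next to TranspExer replicate 3, and the log2 fold change of -0.41 did not pass (SE 0.19, adjusted p = 0.142). Without TranspCtrl replicate 1, the highest sample, the log2 fold change was -0.21 (adjusted p = 0.292). *Ciita* is transcribed from several promoters that differ between cell types, which gene-level counts cannot separate.

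Levels were compared between genes as TPM, a level per length, in which counts were divided by the deposited gene length and scaled to the same total in every sample. *Cd74* was highest in both groups, with 773 ± 237 TPM (SD, n = 3) in TranspCtrl and 1180 ± 14.0 TPM (SD, n = 3) in TranspExer. *H2-Aa* followed with 132 ± 8.08 and 169 ± 4.20 TPM, *H2-Ab1* with 120 ± 2.50 and 167 ± 1.92 TPM, and *H2-Eb1* with 104 ± 4.89 and 123 ± 2.32 TPM (SD, n = 3 for each). The next were *H2-DMa* with 71.6 ± 3.67 and 87.3 ± 2.07 TPM and *H2-DMb1* with 41.4 ± 6.85 and 47.8 ± 3.55 TPM. The ranges of *H2-Aa* and *H2-Ab1* overlapped in TranspExer but not in TranspCtrl. At the lower end, *H2-DMb2* had 17 ± 3.16 and 12.4 ± 2.54 TPM, *H2-Ob* 11.1 ± 2.98 and 4.15 ± 0.634 TPM, *H2-Oa* 4.31 ± 0.627 and 2.74 ± 0.176 TPM, and *Ciita* 4.02 ± 0.884 and 2.97 ± 0.508 TPM. In TranspCtrl the ranges of *H2-DMb2* and *H2-Ob* overlapped, and in both groups those of *H2-Oa* and *Ciita* did, so these neighbours in the order cannot be separated.

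Ratios within a sample compare partners without any scaling between libraries. They were tested for 5 pairs with exact two-sided permutation tests over the samples, in which 3 against 3 samples cannot give a p-value under 0.1. The ratio of *H2-Aa* to *H2-Ab1* stayed near 1, between 0.949 and 1.11 in TranspCtrl and between 0.917 and 0.964 in TranspExer (exact p = 0.2, adjusted over the 5 pairs 0.25).
The ratio of the summed H2-O genes to *H2-DMa* was 0.375, 0.270 and 0.235 in TranspCtrl and 0.105, 0.113 and 0.0878 in TranspExer. The groups were far apart, with a difference of -1.51 on the log2 scale (exact p = 0.1, the smallest possible, adjusted 0.167). The ratio of *H2-Oa* to *H2-Ob* was 0.193 to 0.378 in TranspCtrl and 0.379 to 0.474 in TranspExer, ranges that nearly touched (exact p = 0.1, adjusted 0.167). The ratio of *H2-DMa* to the summed β-chain genes was 0.861 to 1.03 in TranspCtrl and 1.05 to 1.23 in TranspExer (exact p = 0.1, adjusted 0.167).
*Cd74* to *H2-Ab1* was 4.92, 8.73 and 8.74 in TranspCtrl and 8.02, 8.35 and 8.23 in TranspExer, so that only TranspCtrl replicate 1 stood far from the rest. The groups overlapped in this ratio (difference 0.18 on the log2 scale, exact p = 1), and without TranspCtrl replicate 1 the difference was -0.09 (exact p = 0.1, the smallest possible). In that sample the invariant chain was low while *H2-Aa*, *H2-Ab1* and *H2-Eb1* were at the level of the other TranspCtrl samples and *H2-Ob* and *Ciita* were at their highest.

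**Figure D3:**
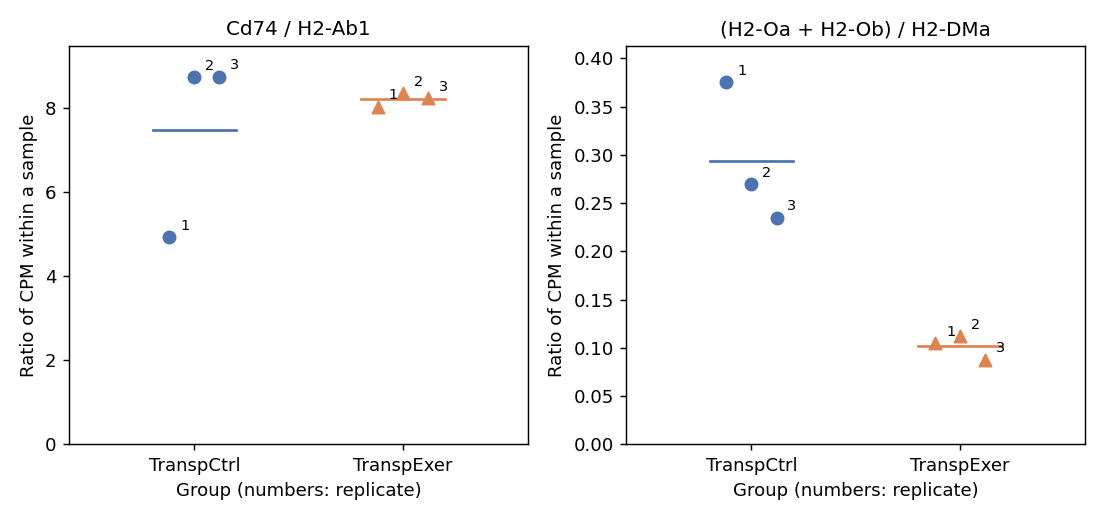
Ratios of CPM within each sample (y axis from 0), with points numbered by replicate and bars at the group means. Cd74 to H2-Ab1 (left) lies between 8.02 and 8.74 in all samples but TranspCtrl replicate 1, at 4.92, and the summed H2-O genes to H2-DMa (right) are at 0.235 to 0.375 in TranspCtrl and at 0.0878 to 0.113 in TranspExer.

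Along chromosome 17, neighbouring class II genes moved in different directions. In the order of the chromosome, the log2 fold changes were -0.62 for *H2-Oa*, 0.32 for *H2-DMa*, -0.42 for *H2-DMb2* and 0.24 for *H2-DMb1*. They were then -1.39 for *H2-Ob*, 0.51 for *H2-Ab1*, 0.40 for *H2-Aa*, 0.27 for *H2-Eb1* and -1.51 for *H2-Eb2*. Of these 9 genes, *H2-DMa*, *H2-Ab1*, *H2-Aa* and *H2-Eb1* passed upward and *H2-Ob* and *H2-Eb2* downward.

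To find genes with a like pattern, the centred log2 CPM profiles of 9668 other genes with at least 10 CPM were compared with the mean profile of *H2-Aa*, *H2-Ab1*, *H2-Eb1* and *Cd74* over the 6 samples. The 8 nearest were *Sema6d*, *Tagln2*, *Zcchc2*, *Gusb*, *Cap1*, *Nod1*, *Mapk3* and *Gm20186*, with a root mean square difference of 0.0172 (*Sema6d*) to 0.0306 (*Gm20186*) on the log2 scale. *H2-Ab1* itself lay at 0.053, *H2-DMa* at 0.085, *H2-Aa* at 0.112, *H2-Eb1* at 0.131 and *Cd74* at 0.259. Among so many genes, 8 outside the list thus matched the mean profile more closely than any gene that composes it. *H2-Ob*, at 0.953, was the farthest of the 10.

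The other genes of the pathway were read from the same test in lists of their own. Of 9 tested genes of endosomal processing, 5 rose and none fell (55.6% higher, beside 16.6% of all genes tested), with a median log2 fold change of 0.43. Cathepsin S, which trims the invariant chain in B cells, dendritic cells and macrophages, is encoded by *Ctss*, which had 2116, 1589 and 1679 CPM in TranspCtrl and 2608, 2443 and 2212 CPM in TranspExer. The groups did not overlap, and the log2 fold change was 0.43 (SE 0.13, adjusted p = 0.0371). *Ctsl*, the protease that does this in thymic epithelium, *Ctsb*, *Lgmn* (the asparaginyl endopeptidase) and *Ctsd* gave log2 fold changes of 0.83, 0.73, 0.81 and 0.44 (edgeR adjusted p = 0.00274, 0.000975, 0.0012 and 0.0246). *Ifi30*, the thiol reductase that opens disulfide bonds of antigens, was at -0.01 on the log2 fold scale (adjusted p = 0.912). These proteases also serve general lysosomal turnover.

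Of 10 factors that bind or act at the class II promoter, 1 rose and 1 fell (10% each, no more than the 16.6% and 15.5% of all genes tested), and the median log2 fold change was 0.00. *Rfx5*, the DNA-binding subunit at the X box, had 22.4, 23.2 and 19.4 CPM in TranspCtrl and 16.3, 14.8 and 16.8 CPM in TranspExer, a log2 fold change of -0.44 (SE 0.11, adjusted p = 0.0179). *Nfya*, a subunit of the Y box factor, had 72, 70.2 and 69.6 CPM in TranspCtrl and 88.9, 90.3 and 87.6 CPM in TranspExer, a log2 fold change of 0.33 (SE 0.07, adjusted p = 0.00797). The other subunits, *Rfxap*, *Rfxank*, *Nfyb* and *Nfyc*, had log2 fold changes of -0.16 to 0.21 and did not pass. The coactivator gene *Crebbp* had 45.5, 86.8 and 81 CPM in TranspCtrl and 109, 101 and 122 CPM in TranspExer and did not pass (0.64, adjusted p = 0.056). It passed with TranspCtrl replicate 1, its lowest sample, left out (0.40, adjusted p = 0.000976). That fit held 2 higher and 1 lower gene of the list, where 22.1% and 19.6% of all genes were, and *Rfxap* was at -0.31 (adjusted p = 0.126).

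Among 14 tested regulators of *Ciita*, 4 rose and 3 fell (28.6% and 21.4%, beside 16.6% and 15.5% of all genes tested), with a median log2 fold change of 0.04. *Irf4*, which acts on the *Ciita* promoter of B cells, had 88.1, 90.0 and 92.9 CPM in TranspCtrl and 17.5, 19.6 and 18.0 CPM in TranspExer. It fell by 2.30 on the log2 scale (SE 0.08, adjusted p = 9.98e-06). *Irf8* and *Spi1* (PU.1), which act on the *Ciita* promoter of dendritic cells and macrophages, rose with log2 fold changes of 0.73 and 0.50 (edgeR adjusted p = 0.000862 and 0.00913). *Irf8* had 109, 125 and 129 CPM in TranspCtrl and 192, 202 and 208 CPM in TranspExer. *Irf2* rose (0.62, adjusted p = 0.019) and *Jak2*, a kinase of the interferon γ receptor, fell (-0.38, adjusted p = 0.0107). Of the remaining called genes, the receptor gene *Ifngr1* was at 0.24 on the log2 fold scale (adjusted p = 0.0469) and *Prdm1*, the repressor of *Ciita* in plasma cells, one of -0.40 (adjusted p = 0.0345). In the interferon γ route, *Irf1* was at -0.45 on the log2 fold scale (adjusted p = 0.0976), and *Ifng*, with 4 to 16 counts, was below the filter. Without TranspCtrl replicate 1, the highest *Irf1* sample, *Irf1* passed with a log2 fold change of -0.18 (adjusted p = 0.0387). *Socs1*, an inhibitor of cytokine signalling, passed in that fit as well (-0.82, adjusted p = 0.0026), against -0.50 (adjusted p = 0.29) with all samples. That fit held 4 higher and 5 lower genes of the list, where 22.1% and 19.6% of all genes were.

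**Figure D4:**
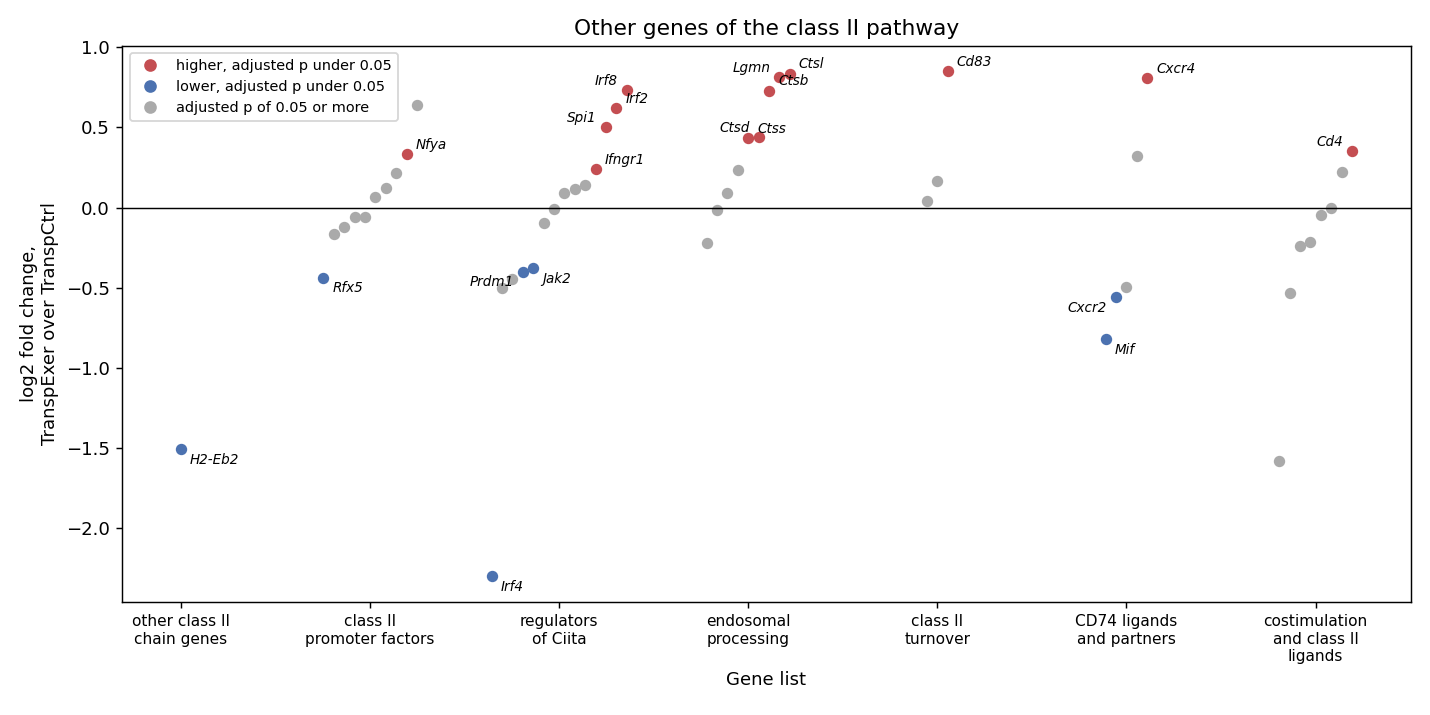
Log2 fold change of TranspExer over TranspCtrl (y axis) for each tested gene of the other class II pathway lists (x axis), coloured by the edgeR call, with called genes named. Endosomal processing holds 5 higher genes and no lower ones, and Irf4 at -2.30 is the lowest.

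The smaller lists were mixed. *Cd83*, which protects surface class II from ubiquitination, rose from 18.1, 14.9 and 14.5 CPM to 29.2, 28.6 and 27.7 CPM, a log2 fold change of 0.85 (SE 0.11, adjusted p = 0.00109). The ubiquitin ligase genes it opposes, *Marchf1* and *Marchf8*, had log2 fold changes of 0.04 and 0.17 and did not pass. *Mif*, the ligand of surface CD74, moved against *Cd74*, with 268, 230 and 258 CPM in TranspCtrl and 145, 138 and 145 CPM in TranspExer. It fell by 0.82 on the log2 scale (SE 0.09, adjusted p = 0.000419). Of the chemokine receptors that pair with CD74, *Cxcr4* rose (0.81, adjusted p = 0.00971) and *Cxcr2* fell (-0.56, adjusted p = 0.0131). *Cd44*, the signalling partner of CD74, did not pass with all samples (0.32, adjusted p = 0.0864) and passed without TranspCtrl replicate 1 (0.19, adjusted p = 0.0101). Of 8 genes for costimulators and class II ligands, *Cd4*, the coreceptor that binds class II, was the 1 that passed (12.5%, under the 16.6% of all genes that were higher), with a log2 fold change of 0.35 (adjusted p = 0.0111), while *Cd80*, *Cd86* and *Cd40* gave log2 fold changes of -0.53, -0.24 and -0.05 and did not pass. With TranspCtrl replicate 1 left out, *Cd274* (PD-L1) passed as well (0.26, adjusted p = 0.00223), and *Cd80* and *Cd40*, which did not pass, were at -0.33 and 0.14.

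Markers of the cells that carry class II moved in different directions beside these genes, and their counts are to be read beside the 16.6% of all genes tested that were higher and the 15.5% that were lower. In bulk samples, fewer cells of a type and less RNA per cell cannot be told apart. The B cell list fell in 8 of 10 genes and rose in 1, with a median log2 fold change of -1.32, and its summed level was 275 to 307 CPM in TranspCtrl and 161 to 166 CPM in TranspExer. *Ms4a1*, *Fcrla* and *Cd79b* had log2 fold changes of -1.25, -2.05 and -1.38 (edgeR adjusted p = 6.19e-05, 7.57e-05 and 0.000114), beside -1.39 for *H2-Ob*. *Cd22* was the exception, with a log2 fold change of 0.25 (adjusted p = 0.0444). All 5 plasma cell genes fell, among them *Mzb1*, *Jchain*, *Eaf2* and *Derl3* with log2 fold changes of -3.57, -2.29, -4.77 and -2.96, and their sum was 1368 to 1740 CPM in TranspCtrl and 274 to 306 CPM in TranspExer.
Of 7 tested dendritic cell genes, 3 rose and 1 fell (42.9% and 14.3%, the latter no more than the share of all genes), and the sum of the list of 9 was 81.2 to 94.2 CPM in TranspCtrl and 131 to 139 CPM in TranspExer, most of it from *Itgax*. *Itgax* (CD11c) and the low-level genes *Clec9a* and *Batf3* gave log2 fold changes of 0.75, 1.18 and 0.96 (edgeR adjusted p = 0.000745, 0.0205 and 0.0342), whereas *Ccr7* had one of -0.95 (adjusted p = 0.00291). *Flt3*, *Zbtb46* and *Siglech* had log2 fold changes of -0.72, 0.35 and -0.005 and did not pass. The defining genes *Xcr1* and *Cd209a* had 1 to 5 counts in each sample and were below the filter. The 10 macrophage genes held 3 that rose (*Cd68*, *Mertk* and *Fcgr1*, with log2 fold changes of 0.78, 0.71 and 0.38) and 2 that fell (*Lyz2* and *Mrc1*, -1.14 and -0.33), shares of 30% and 20%. Their sum was 9020 to 14095 CPM in TranspCtrl and 7249 to 7962 CPM in TranspExer, and the difference came from *Lyz2*, with 9102, 4895 and 5238 CPM in TranspCtrl and 3236, 2897 and 2596 CPM in TranspExer. Without *Lyz2*, a sum made after the data were examined, the other 9 genes had 4993, 4124 and 4084 CPM in TranspCtrl and 4726, 4814 and 4653 CPM in TranspExer, with overlapping groups. Without TranspCtrl replicate 1, 6 of these 10 genes rose and 2 fell, where 22.1% and 19.6% of all genes did.
Of 5 T cell genes 3 fell, including *Lck* and *Cd3d* with log2 fold changes of -0.70 and -1.83, with a sum of 29.6 to 33.4 CPM in TranspCtrl and 21.3 to 25.1 CPM in TranspExer. All 7 endothelial genes rose, among them *Emcn*, *Kdr*, *Pecam1* and *Tie1* with log2 fold changes of 1.52, 1.55, 0.87 and 1.56, and their sum was 191 to 225 CPM in TranspCtrl and 579 to 630 CPM in TranspExer. RNA of stromal markers was present, since all 9 stromal genes passed the filter, which does not by itself identify the cells. Their sum was 11500 to 19351 CPM in TranspCtrl and 12395 to 13636 CPM in TranspExer, and 6 of them were lower and 1 higher in TranspExer. *Pdgfra*, *Nt5e*, *Thy1* and *Cxcl12* had log2 fold changes of -1.0, -1.08, -0.71 and -0.46. No gene of these marker lists was at 0 in all samples. The part of B cells, dendritic cells, macrophages and endothelial cells in the class II differences was not tested.

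**Figure D5:**
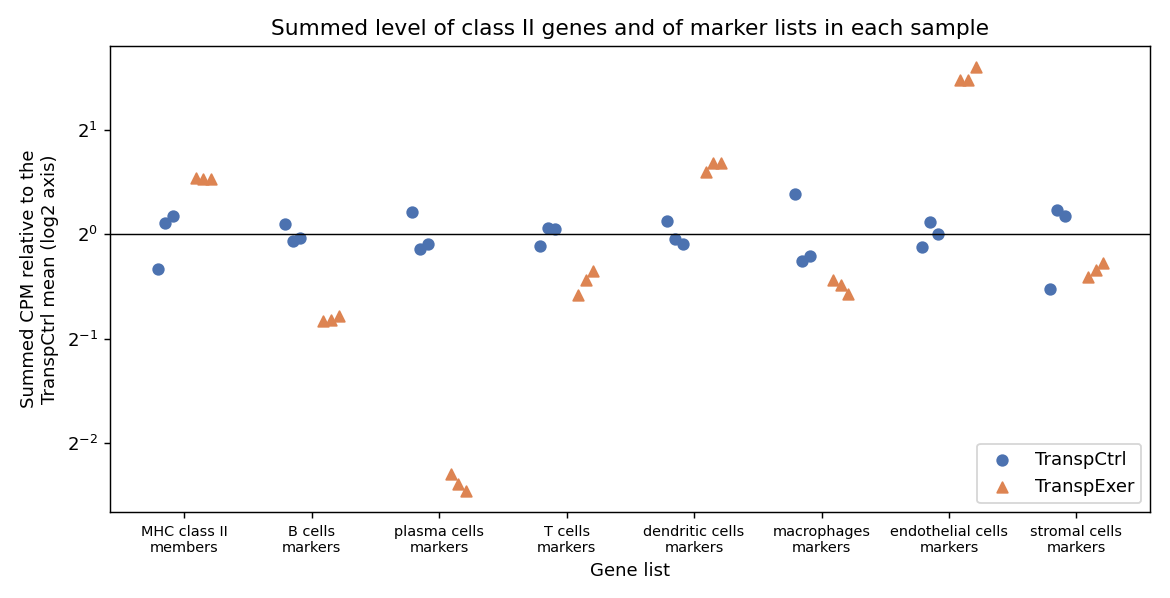
Summed CPM of the 10 class II genes and of each marker list in every sample, relative to the TranspCtrl mean of that list (log2 axis, 1 is the TranspCtrl mean). In TranspExer the class II sum averages 1.44 times TranspCtrl, dendritic cell markers 1.57 and endothelial markers 2.86, while B cell markers are at 0.569 and plasma cell markers at 0.192. Most of the dendritic cell sum comes from Itgax, at 65.7 to 78.8 CPM in TranspCtrl and 115 to 123 CPM in TranspExer.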

How the data were processed

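The libraries are RNA-Seq of BM MSCs, with 3 TranspCtrl and 3 TranspExer samples grouped by the sample labels. The authors deposited expected counts (estimated read counts, not normalized, 10.1% to 12.2% of them not whole) with gene lengths for 56980 genes. The submitters' processing notes name the build mm10, and the aligner and counting tool are not given in the sources used here, nor is the use of strand. Counts were rounded and tested with edgeR 4.0.16 in R 4.3.3 (filterByExpr, TMM, quasi-likelihood test, condition as the only term, Benjamini-Hochberg adjustment over all genes). Positions and overlaps came from GENCODE M21 and promoters from RefSeq. Totals of 17647638 to 21319166 counts set the precision, which covers counting error only.

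The genes, lists and tests were chosen with earlier results of these data known. The genes named are the 10, called genes of each list (up to 5 per pathway list and 4 per marker list, by p-value) and 8 nearest profiles. *H2-Ea*, genes that did not pass, *Ifngr1*, *Prdm1*, *Cd22*, *Fcgr1* and genes overlapping or neighbouring the 10 were named after their values were seen. Alternatives were DESeq2 1.42.0, other scalings and filters, a replicate block, a model test against the fold threshold and each sample left out. The edgeR and DESeq2 fits were checked on simulated data. The promoters of *Cd74*, *H2-Ab1* and *Ciita* were not analysed here.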

Additional observations from a re-analysis of the deposited data

How the results depend on the processing

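With testing against a fold of 2 (edgeR's glmTreat), 0 class II genes were higher and 0 lower, while 0 and 1 had an unadjusted p-value under 0.05. With the fold of 2 tested, 0 pathway genes were higher, also at the unadjusted p-value, and 1 was lower, and 4 marker genes were higher and 8 lower. DESeq2, at the adjusted p-value alone, called 5 class II genes higher and 1 lower and 14 pathway genes higher, where 14.9% and 13.1% of all genes were higher and lower. With upper-quartile normalization 3 class II genes were higher and 2 lower, since *H2-Eb1* and *Cd74* no longer passed (adjusted p = 0.0863 and 0.0503) and *H2-Oa* passed, where 13.5% and 19.1% of all genes were. With scaling by library size only 2 were lower, where 19.5% of all genes were. Over all genes, 2523 were higher and 2361 lower, against 138 and 274 with a fold of 2 tested and 1315 to 1458 and 1325 to 1407 with a TranspExer sample left out. With single samples left out, 2 to 6 class II genes were higher and 1 to 2 lower, the pathway lists held 7 to 17 higher and 4 to 9 lower genes, and the marker lists 10 to 18 and 19 to 29. In those fits 8.42% to 22.1% of all genes were higher and 8.48% to 19.6% lower. The log2 difference in the *Cd74* to *H2-Ab1* ratio ranged from -0.0915, without TranspCtrl replicate 1, where it changed sign, to 0.323.

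With the replicate block 2 class II genes were lower, since *H2-DMb2* passed (log2 fold change -0.42, adjusted p = 0.0467), where 14.6% of all genes were lower, and the block changed no other call among the 10. The labels give equally numbered samples no link beyond the number. Their deviations from the group means correlated at 0.0247, -0.00167 and 0.0416, and not every sample correlated best with its own number. Deviations within a group of 3 samples depend on each other, so these values cannot decide whether the samples are paired. Summed with *H2-DMb1*, *H2-DMb2* changed sign to 0.0748. All other fits kept the sign of each of the 10 log2 fold changes. The cause of these moves was not tested. Depth limits *H2-Oa* most, at 25 to 56 counts.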

Other observations

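The class II region of chromosome 17, from *H2-Oa* to *H2-Ea*, holds 22 annotated genes, of which 15 were tested, and 6 of the genes tested are not class II genes. These genes were looked at after the data were examined. Of the 6, 1 was higher, 1 lower and 4 did not pass in edgeR, counts near the shares of all genes tested (16.6% higher and 15.5% lower). *Tap2*, a subunit of the transporter that supplies peptides to class I molecules, was higher with a log2 fold change of 0.23 (SE 0.07, adjusted p = 0.0473). Its partner *Tap1* was at -0.08 on the log2 fold scale (adjusted p = 0.489). The immunoproteasome genes *Psmb8* and *Psmb9*, which flank *Tap1*, gave log2 fold changes of -0.17 and -0.26 (edgeR adjusted p = 0.476 and 0.0979). *Brd2*, which encodes a chromatin reader, was at 0.14 on the log2 fold scale (adjusted p = 0.187). The non-coding gene *Gm15821* was lower with a log2 fold change of -1.10 (SE 0.30, adjusted p = 0.0252), at a mean of 0.812 CPM. In the chromosome's order it is the tested gene just before *H2-Ob*, which had -1.39, and *H2-Ab1*, the tested gene just after *H2-Ob*, had 0.51.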
